A study of Bos taurus with 28 samples.

Results

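The genes described here build, bind and cut the extracellular matrix of the liver. They were chosen by symbol in the platform annotation: 11 genes by name (among them DCN, LUM, BGN, FN1 and SPARC) and all collagen, laminin and integrin chains, matrix metalloproteinases, TIMPs, fibulins, fibrillins, thrombospondins, ADAMTS proteases and lysyl oxidases that matched a pattern. The rule found 98 genes among the 8073 with a named probe, and 77 of them had enough values to be tested among 6958 tested genes. VCAN and ACTA2 had no named probe and were not analysed here. ITGB1BP1 and ITGB3BP matched the integrin pattern, but encode proteins that bind integrin beta chains.

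Livers of 7 ketotic and 7 healthy Holstein cows were compared, all of which had calved more than once. All 14 were judged healthy on day 4 after calving and were assigned to a group at random. Per the design text, ketotic cows were held to 50% of their earlier intake from day 5 until clinical signs or day 14 (day 4 in the labels of the samples), and healthy cows were not restricted. Ketosis is the build-up of ketone bodies in an animal whose energy demand outruns its feed, and each cow's liver RNA was hybridised on 2 cDNA arrays, with the dyes exchanged, against a reference RNA pooled from cattle tissues.

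The extracellular matrix of the liver is a sparse meshwork of collagens, fibronectin, laminins and proteoglycans, held mostly in the portal tracts and in the space between hepatocytes and the sinusoids. Collagens and proteoglycans come mainly from stellate cells and portal fibroblasts, whereas hepatocytes make plasma fibronectin and release it into blood. Cells hold the matrix through integrins, pairs of alpha and beta chains. Metalloproteinases and ADAMTS proteases cut it, TIMPs inhibit the metalloproteinases, and lysyl oxidases cross-link the fibrils.

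Every value is a log2 ratio of liver over the reference RNA, centred on the array's median and averaged over both arrays of a cow. The direction of the ratios is likely rather than stated, and rests on the dyes in the labels and on hepatocyte markers. Spots without a usable ratio made up 12.2% to 25.02% per ketotic cow and 9.19% to 16.6% per healthy cow. The spread of the ratios (median absolute deviation) was 1.02 to 1.53 in ketotic cows and 0.88 to 1.22 in healthy cows. Both ranges reached higher in ketotic cows, and neither measure's part in the differences was tested, beyond the alternatives given at the end. Healthy cow 7 stood apart from the other cows. Its log2 ratios correlated with theirs across genes at 0.36 to 0.46, against 0.72 to 0.91 among the other 13 cows. Its high matrix genes were known from earlier results, and the rule that chose the genes asked for each comparison with and without it.

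Few matrix genes differed between the groups. With all cows, 2 of the 77 tested members (2.60%) were lower in ketotic livers, FN1 and ITGB5, at an adjusted p under 0.05 from limma over all genes, where 12.4% of all 6958 genes were lower. One member, MMP9, was higher (1.30% of the members, against 0.92% of all genes). The difference was below 0 for 50 members and above 0 for 27, and its median was -0.18 over the members and -0.18 over all genes. With that outlying cow left out, 4 of 76 members were lower (5.26%, against 18.4% of all genes): FN1, ITGB5, DCN and MMP14. None was higher by limma, against 1.5% of all genes. An unadjusted p under 0.05 in limma, in either direction, was found for 15 members (19.7%), against 33.8% of all genes. The median difference was then -0.06 over the members and -0.19 over all genes. That median is near 0 and turned to 0.06 when arrays were centred on the same probes. The share of lower members was below that of all genes with and without this cow. In whole liver tissue, fewer cells of a type and less RNA per cell cannot be told apart.

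Non-overlapping groups gave a like picture. Every ketotic cow lay below every healthy cow for 2 members, FN1 and ITGB5, where 5.39% of all genes did so. Every ketotic cow with a value lay above every healthy cow for MMP9, as for 0.316% of all genes. Leaving out healthy cow 7 added no member to these, while the shares of all genes came to 8.49% and 0.489%.

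**Figure D1:**
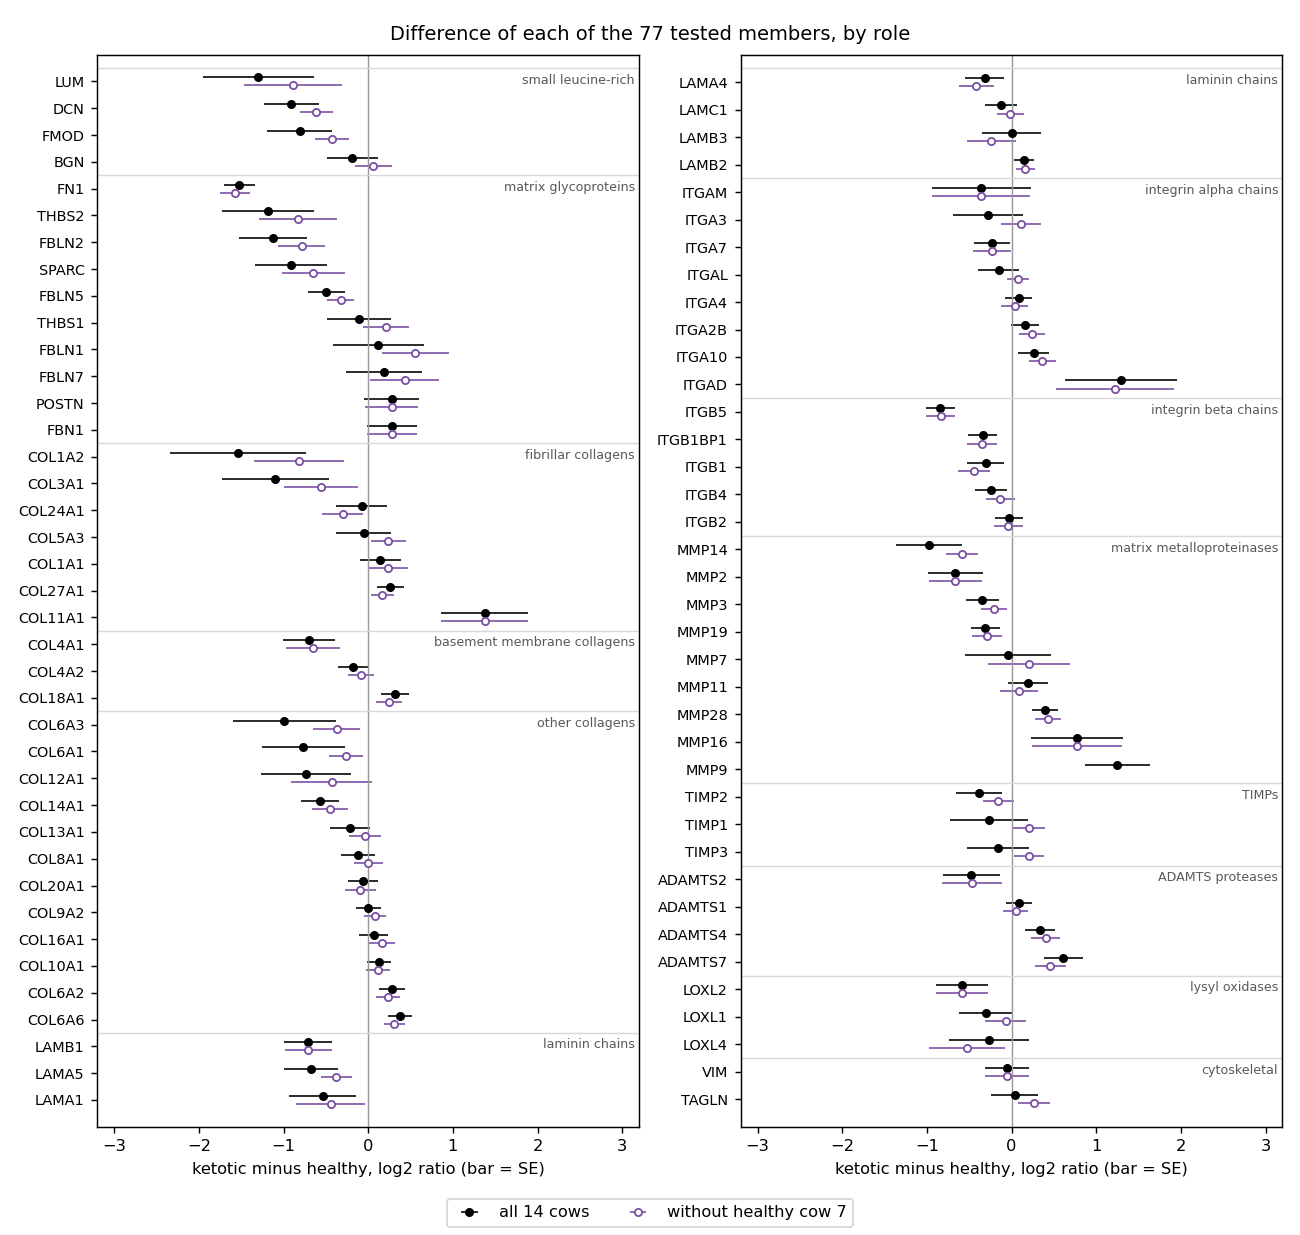
Difference, ketotic minus healthy, of each of the 77 tested members in log2 ratio (horizontal axis), by role, with limma's standard error as bars. Filled points are the fit on all 14 cows and open points the fit without healthy cow 7; the open points of COL1A2, COL3A1, COL6A3 and TIMP1 lie to the right of the filled ones, while those of FN1 and ITGB5 stay near -1.5 and -0.8.

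Fibronectin, the glycoprotein that links collagen fibrils to integrins, had the smallest p of the 77 members. FN1 measured -2.03 at the lowest, -1.27 at the median and -0.98 at the highest in ketotic cows, against -0.19, 0.17 and 0.42 in healthy cows. The groups did not overlap: ketotic livers lay below the array's median ratio and healthy livers close to it. The mean was -1.38 ± 0.38 in ketotic cows and 0.14 ± 0.24 in healthy cows (SD, n = 7 each), a difference of -1.52 (SE 0.18), or 2.87-fold lower, with an adjusted p of 0.0011 in limma. It was -1.58 without healthy cow 7 (adjusted p = 0.00044 in limma). FN1 has 1 probe on the array, with a ratio on every spot. It was lower, with an adjusted p under 0.05, in all 30 alternatives run with all cows as the starting point and in all 15 run without healthy cow 7.

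Marker values of hepatocytes, the source of plasma fibronectin, are given beside FN1, and their part in its difference was not tested. The median over the 17 measured markers was 5.54 to 7.02 in ketotic cows and 5.40 to 7.21 in the 6 other healthy cows. With all cows 2 of the 17 passed as higher in ketotic livers and 0 as lower. Without healthy cow 7, 2 passed as higher and 1 as lower. In healthy cow 7 the marker median was 3.47, while FN1 was -0.19.

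Other glycoproteins did not pass the test in either comparison, so 1 of the 10 measured was lower and none higher. SPARC, a collagen-binding protein of remodelling tissue, measured -3.96, -3.38 and -3.07 in ketotic cows (lowest, median, highest) and -3.41, -3.12 and -0.60 in healthy cows. The ranges overlapped: 5 healthy cows lay between -3.41 and -2.85, and healthy cows 2 and 7 far above them. The difference of -0.91 (SE 0.42; adjusted p = 0.17, limma) shrank to -0.22 without those 2 cows. FBLN2, a fibulin of elastic fibres and basement membranes, differed by -1.13 with all cows (adjusted p = 0.074, limma) and by -0.79 without healthy cow 7 (adjusted p = 0.057).

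POSTN, periostin, went the other way. It measured -0.86, -0.08 and 0.28 in ketotic cows, against -1.49, -0.52 and 1.13 in the 6 healthy cows with a value. The healthy range enclosed the ketotic one, and the difference was 0.28 (SE 0.32; adjusted p = 0.63, limma).

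The thrombospondins, fibulins and fibrillin covered both signs. THBS2 averaged -2.29 ± 0.33 in 6 ketotic cows and -1.11 ± 1.47 in 7 healthy cows (SD), a difference of -1.18 (SE 0.55; adjusted p = 0.17, limma). THBS1, the thrombospondin best known from platelets, averaged -4.92 ± 0.68 in ketotic cows and -4.81 ± 0.87 in healthy cows, one of the lowest ratios of all members. The fibulin FBLN5, needed for elastic fibre assembly, differed by -0.50 (SE 0.22; adjusted p = 0.14). FBLN1, a fibulin that binds fibronectin, differed by 0.12 with all cows and by 0.56 without healthy cow 7, and FBLN7 by 0.19 and by 0.43. FBN1, the microfibril protein fibrillin, differed by 0.28 (adjusted p = 0.59).

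The small leucine-rich proteoglycans coat collagen fibrils and set their width. None of the 4 passed with all cows, and 1, decorin, was lower without healthy cow 7. DCN measured -1.96, -1.58 and -0.97 in ketotic cows, against -1.37, -1.01 and 1.17 in healthy cows, and the highest healthy value came from healthy cow 7. The groups overlapped in both comparisons, since 4 healthy cows lay within the ketotic range. The means were -1.53 ± 0.36 in ketotic cows and -0.62 ± 0.85 in healthy cows (SD, n = 7 each), a difference of -0.91 (SE 0.32; adjusted p = 0.075, limma). Without healthy cow 7 the difference was -0.61 (SE 0.20), or 1.53-fold lower, with an adjusted p of 0.041 in limma. That call was lost when healthy cow 2 was left out too (-0.49, adjusted p = 0.084) and in 8 of 15 alternatives, among them every rescaling of the arrays to one spread or one distribution.

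Lumican, a keratan sulfate proteoglycan, varied most of the 4. LUM measured -6.07, -3.52 and -2.22 in ketotic cows, against -4.04, -2.72 and 0.08 in healthy cows, and the difference of -1.30 (SE 0.65) had an adjusted p of 0.21 in limma. Fibromodulin, which also binds collagen fibrils, measured -3.28, -2.54 and -2.16 in ketotic cows, against -2.83, -2.08 and 0.37 in healthy cows. FMOD differed by -0.81 with all cows (adjusted p = 0.18) and by -0.43 without healthy cow 7 (adjusted p = 0.15, limma). Biglycan, the closest relative of decorin, measured -0.84, -0.18 and 0.47 in ketotic cows, against -0.62, -0.10 and 1.53 in healthy cows. The difference of BGN was -0.19 with all cows (SE 0.30), 0.06 without healthy cow 7 (SE 0.21) and -0.02 without healthy cows 2 and 7 (SE 0.22). Each was smaller than its SE, and the sign changed with the cows included.

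**Figure D2:**
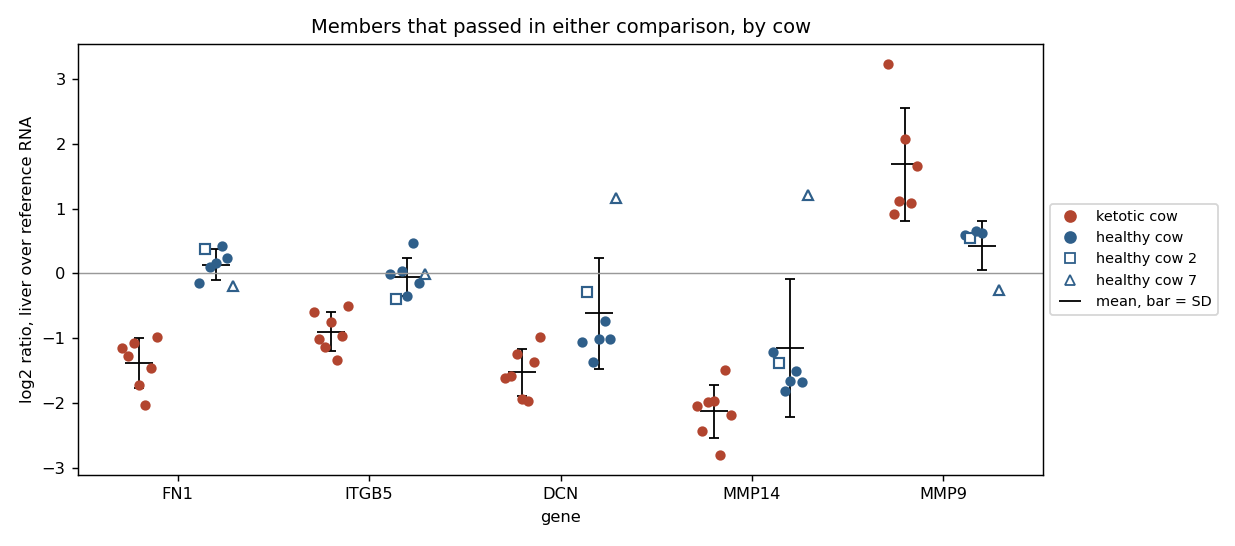
Log2 ratio of liver over reference RNA (vertical axis) in each cow for the 5 members that passed in either comparison; red circles are ketotic cows, blue symbols healthy cows, with healthy cow 2 as an open square and healthy cow 7 as an open triangle, and bars give the mean and SD. FN1 and ITGB5 separate the groups, while healthy cow 7 lies at 1.17 for DCN and 1.22 for MMP14, far above the other cows.

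No fibrillar collagen passed in either comparison (0 of 7). COL1A2 and COL3A1, both with low ratios, encode the alpha 2 chain of type I collagen and the chain of type III collagen. These are the main fibrils of liver stroma. COL1A2 measured -6.24, -5.23 and -4.95 in ketotic cows, against -5.74, -4.91 and 0.41 in healthy cows. Its difference of -1.54 (SE 0.80; adjusted p = 0.23, limma) was the largest in size among the members, but it came to -0.82 without healthy cow 7 and to -0.23 without healthy cows 2 and 7. COL3A1 behaved alike, with -1.10 for all cows, -0.55 without healthy cow 7 and -0.07 without both. COL1A1, the partner chain of COL1A2 in type I collagen, measured 0.43 ± 0.54 in ketotic cows and 0.29 ± 0.38 in healthy cows (SD, n = 7 each), and its probe did not show the excess of COL1A2 in the outlying cows. It was 0.40 in healthy cow 2, within the range of the other healthy cows, and 0.85 in healthy cow 7, the highest of the healthy cows but within the ketotic range. Its Cy3 array in healthy cow 7 was 1.18, against -0.42 to 0.53 in healthy cows 1, 3, 4, 5 and 6. Whether that probe measures the annotated gene was not tested. COL11A1, a minor fibrillar chain best known from cartilage, also had low ratios, with means of -2.55 in ketotic and -3.92 in healthy cows. It differed by 1.38 (SE 0.52, adjusted p = 0.098, limma), from 6 cows of each group, and 23.2% of its spots had no usable ratio. The other 3, COL5A3, COL24A1 and COL27A1, differed by -0.05, -0.08 and 0.26 with all cows and by 0.24, -0.30 and 0.17 without healthy cow 7.

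Among the network and other collagens, 0 of 3 basement membrane chains and 0 of 12 others passed. COL4A1, the main chain of the basement membrane network, measured -2.96, -1.65 and -0.85 in ketotic cows, against -1.54, -1.08 and 0.17 in healthy cows. The highest value was that of healthy cow 2, and the difference of -0.70 (SE 0.31; adjusted p = 0.15, limma) was -0.65 without healthy cow 7. COL6A3, a chain of the beaded filaments of type VI collagen, measured -3.80, -3.13 and -2.72 in ketotic cows, against -3.47, -2.85 and 1.50 in healthy cows, and its difference was -0.99 with all cows but -0.37 without healthy cow 7. COL6A6, a later-found type VI chain, had the smallest p of the other collagens. It measured 0.73, 1.02 and 1.37 in ketotic cows, against 0.23, 0.71 and 0.93 in healthy cows, a difference of 0.38 (SE 0.14; adjusted p = 0.094, limma). The ranges of COL6A6 overlapped from 0.73 to 0.93. When arrays were centred on the same probes it passed (0.49, adjusted p = 0.039).

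The remaining collagens showed no difference that passed. COL14A1, a fibril-associated collagen, averaged -0.43 ± 0.50 in ketotic cows and 0.14 ± 0.37 in healthy cows (SD, n = 7 each), a difference of -0.57 (SE 0.23; adjusted p = 0.11, limma). Both its probes with enough values had differences below 0, of -0.25 and -0.88. COL12A1, another fibril-associated chain, differed by -0.73 (SE 0.53) and was raised in both outlying healthy cows, by 2.12 in cow 7 and 1.92 in cow 2. COL6A1, a partner of COL6A3, averaged -3.24 ± 0.33 in ketotic cows and -2.48 ± 1.40 in healthy cows, and its difference of -0.77 came to -0.26 without healthy cow 7. COL6A2, the other partner, averaged -0.67 ± 0.21 in ketotic cows and -0.95 ± 0.27 in healthy cows, so its sign was opposite. COL18A1, the parent chain of endostatin, differed by 0.32 and COL4A2, the mate of COL4A1, by -0.18. COL8A1, COL9A2, COL10A1, COL13A1, COL16A1 and COL20A1 lay between -0.21 and 0.13.

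None of the 7 laminin chains passed, and the difference was below 0 for 5. LAMB1, the beta chain of the most widespread laminins, measured -3.67, -2.61 and -2.03 in ketotic cows, against -2.70, -2.21 and -1.23 in the 6 healthy cows with a value. The ranges overlapped, and healthy cow 2 was again the highest. The difference was -0.71 (SE 0.29; adjusted p = 0.12, limma). LAMA5, an alpha chain of mature basement membranes, averaged -2.33 ± 0.25 in ketotic cows and -1.65 ± 0.89 in healthy cows (SD, n = 7 each), and its difference of -0.68 was -0.38 without healthy cow 7. LAMC1, the most common gamma chain, differed by -0.12 and LAMB2, a beta chain of vessels and kidney, by 0.15. LAMA1 and LAMA4, with 5 ketotic cows each, differed by -0.54 and -0.32.

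Integrins gave 1 passing chain. ITGB5, which pairs with the alpha V chain in a receptor for vitronectin, was lower in ketotic livers and was 1 of 4 beta chains measured. It measured -1.34, -0.96 and -0.50 in ketotic cows, against -0.39, -0.01 and 0.47 in healthy cows. The groups did not overlap, and healthy cow 7 lay at -0.01, among the other healthy cows. The means were -0.90 ± 0.30 in ketotic cows and -0.06 ± 0.29 in healthy cows (SD, n = 7 each), a difference of -0.84 (SE 0.17), or 1.79-fold lower, with an adjusted p of 0.0071 in limma. It was the same size, -0.84, without healthy cow 7 (adjusted p = 0.0050). The call held in 29 of 30 alternatives, and was lost in arrays with liver in Cy5 alone (-0.71, adjusted p = 0.091).

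The other 3 beta chains had differences below 0 without passing. ITGB1, the partner of most alpha chains, differed by -0.30 (SE 0.22; adjusted p = 0.39, limma), ITGB4, the hemidesmosome chain, by -0.24, and ITGB2, the leukocyte chain, by -0.03. None of the 8 alpha chains passed, and with all cows 4 lay on each side of 0. ITGAD, a leukocyte alpha chain, had the largest difference of these. It measured 0.00, 1.24 and 3.25 in 6 ketotic cows, against -1.39, -0.28 and 3.42 in 7 healthy cows, where healthy cow 3 at 3.42 was far above the next, healthy cow 1 at 0.10. The difference of 1.29 had an SE of 0.66 and an adjusted p of 0.22 in limma, and 23.2% of its spots had no usable ratio. ITGAM, the alpha chain of the myeloid complement receptor, averaged 1.45 ± 1.39 in 6 ketotic cows and 1.81 ± 0.88 in 6 healthy cows (SD). ITGAL, the alpha chain of the lymphocyte receptor for ICAMs, differed by -0.15, ITGA7, a laminin receptor chain of muscle, by -0.23, and ITGA4, a leukocyte receptor chain for VCAM1, by 0.08. ITGA10, a collagen receptor chain, and ITGA2B, the platelet chain, differed by 0.26 and 0.16. ITGA3, a laminin receptor chain, has 2 probes that differed by -0.61 and by 0.04.

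Matrix metalloproteinases gave the member that was higher with all cows and another that was lower without healthy cow 7. MMP9, gelatinase B, is made chiefly by neutrophils and macrophages. It measured 0.92, 1.38 and 3.24 in the 6 ketotic cows with a value, against -0.25, 0.59 and 0.65 in 5 healthy cows. The groups did not overlap, but ketotic cow 1 at 3.24 and ketotic cow 4 at 2.08 stood above the others. The means were 1.68 ± 0.88 in ketotic cows and 0.43 ± 0.38 in healthy cows (SD, n = 6 and 5), a difference of 1.25 (SE 0.38), or 2.38-fold higher, with an adjusted p of 0.048 in limma. Of its spots 21.4% had no usable ratio. The call held in 9 of the 23 alternatives that gave it a value. Without healthy cow 7 only 4 healthy cows had a value, and at a minimum of 2 cows a group the difference was 1.08 (SE 0.40; adjusted p = 0.095, limma). Of 8 macrophage markers measured, none was higher and 3 were lower with all cows, and 4 were lower without healthy cow 7. Their median was 1.01 to 3.09 in ketotic cows and 2.42 to 3.49 in the 6 other healthy cows, and their part in the difference of MMP9 was not tested.

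MMP14, a membrane-bound metalloproteinase that activates pro-MMP2, was lower without healthy cow 7. It measured -2.80, -2.04 and -1.49 in ketotic cows, against -1.82, -1.51 and 1.22 in healthy cows, with 1.22 in healthy cow 7 and -1.21 as the next highest. The ranges overlapped. The difference was -0.98 (SE 0.39; adjusted p = 0.11, limma) with all cows. Without healthy cow 7 it was -0.58 (SE 0.19), or 1.50-fold lower, with an adjusted p of 0.040. The call was lost in 9 of 15 alternatives, among them scaling to one spread (-0.20, adjusted p = 0.38). MMP2, gelatinase A, the target of MMP14, had a value in 6 healthy cows and differed by -0.66 (SE 0.32; adjusted p = 0.20, limma). MMP28, epilysin, differed by 0.39 with all cows (adjusted p = 0.11) and passed at 0.51 when arrays were centred on the same probes.

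The remaining metalloproteinases did not pass. MMP3, stromelysin-1, averaged 0.56 ± 0.28 in ketotic cows and 0.90 ± 0.42 in healthy cows, and MMP19 averaged 0.27 ± 0.27 in ketotic cows and 0.58 ± 0.34 in healthy cows (SD, n = 7 each). Their differences were -0.35 and -0.31, with adjusted p of 0.26 for both in limma. MMP7, matrilysin, differed by -0.04 and MMP11, another stromelysin by name, by 0.19. MMP16, a membrane-bound relative of MMP14, differed by 0.77 with an SE of 0.54.

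The inhibitors and the modifying enzymes held no passing member in either comparison. TIMP2, an inhibitor that also helps MMP14 to activate pro-MMP2, measured -3.11, -2.51 and -2.01 in ketotic cows, against -2.76, -2.33 and -0.74 in healthy cows. Its difference was -0.38 (adjusted p = 0.38, limma), and its 2 probes gave -0.15 and -0.62. The 3 TIMPs all differed below 0 with all cows, but TIMP1 and TIMP3 lay at 0.21 and 0.21 without healthy cow 7. In that comparison, scaling to one spread put both past the threshold as higher in ketotic livers (0.96 and 0.63). ADAMTS7, a protease that cuts COMP in cartilage, measured 0.14, 0.84 and 1.21 in 6 ketotic cows, against -0.80, 0.17 and 0.62 in 7 healthy cows. Its difference of 0.61 (SE 0.23) had an adjusted p of 0.097 in limma, and the ranges overlapped. ADAMTS1 and ADAMTS4, which cut aggrecan and versican, differed by 0.09 and 0.34, and ADAMTS2, which trims procollagen, by -0.48 (SE 0.34). LOXL2, a lysyl oxidase of basement membranes and fibrils, measured -5.50, -4.58 and -3.79 in ketotic cows, against -5.02, -4.07 and -3.13 in 6 healthy cows, a difference of -0.59 (SE 0.31; adjusted p = 0.23). Its relatives LOXL1 and LOXL4 differed by -0.31 and -0.27.

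Neither of the 2 measured cytoskeletal proteins of mesenchymal cells passed in either comparison. VIM, vimentin, measured -4.46, -3.72 and -3.22 in ketotic cows, against -4.50, -3.74 and -2.87 in 6 healthy cows, a difference of -0.05 (SE 0.26; adjusted p = 0.92, limma). TAGLN, the smooth muscle protein transgelin, measured -2.36, -1.93 and -1.42 in ketotic cows, against -2.58, -2.15 and -0.56 in healthy cows. Its difference was 0.04 with all cows and 0.26 without healthy cow 7 (adjusted p = 0.37). In the latter comparison, scaling to one spread put TAGLN past the threshold as higher in ketotic livers (0.66, adjusted p = 0.028, limma). Stellate cell and smooth muscle markers outside the members gave 0 passing genes of 9 with all cows, and their median was -0.38 to 0.34 in ketotic cows and -0.50 to 0.17 in the 6 other healthy cows.

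The spread between healthy cows was wide for these genes. With all cows, 57 of the 77 members (74.0%) had a larger SD in healthy than in ketotic cows, against 59.2% of all genes. Without healthy cow 7 the shares were 53.9% and 37.8%, and without healthy cows 2 and 7 they were 40.0% and 37.9%. Both cows were known for high values of members, so leaving them out had to lower these shares, and they are given as a description.

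**Figure D3:**
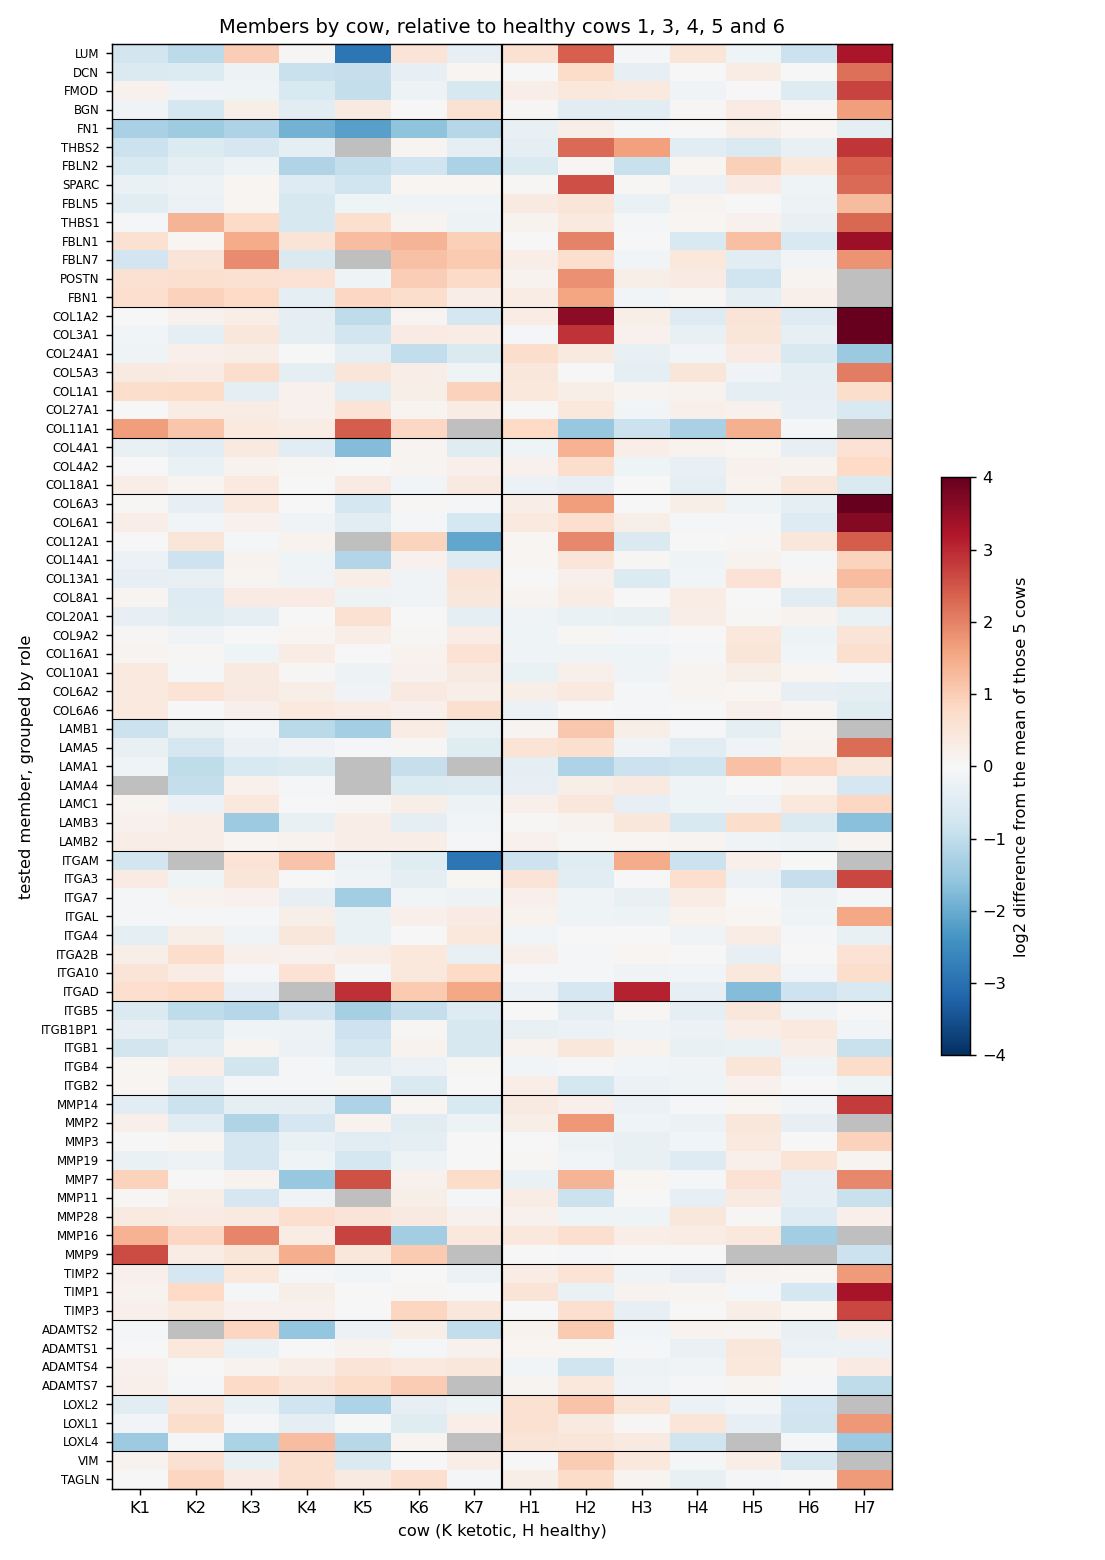
The 77 tested members (down the page, grouped by role) in the 7 ketotic and 7 healthy cows (across), as the log2 difference from the mean of healthy cows 1, 3, 4, 5 and 6; grey marks no value, and 3 values lie beyond the colour limit of 4. COL1A2, COL3A1, LUM and SPARC are red in healthy cows 2 and 7, COL11A1 and BGN are not red in healthy cow 2, and FN1 is blue in every ketotic cow.

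Healthy cow 7 was known beforehand for high matrix genes, so its member values are given as a description and not as a test. It was the highest of all cows for 33 of the 68 members with a value in it and the lowest for 10. That count was not made over all genes, from which this cow also stood apart. It exceeded the mean of the other healthy cows by over 1 for 28 members (41.2%), against 16.2% of all genes. COL1A2 exceeded that mean by 5.02, COL6A3 by 4.32, COL3A1 by 3.79, COL6A1 by 3.57 and TIMP1 by 3.34. Its hepatocyte marker median of 3.47 was the lowest of the 14 cows, and APOB, the protein of very low density lipoprotein, was 0.41 there, against 7.99 to 9.86 in the other healthy cows. Albumin (ALB), at 7.06, lay within their range of 6.28 to 8.20. Across the 68 members, the excess of this cow correlated with the ketotic mean at r = -0.80, and across 6335 genes at r = -0.64. Genes that lay low against the pooled reference thus lay higher in this cow, among the members and among all genes. The excess subtracts the mean of the other healthy cows, however. Log2 ratios of the other cows correlated with each other at 0.72 to 0.91, so that mean largely follows the ketotic mean. A negative r was therefore largely fixed in advance for a cow unlike the rest, and no conclusion is drawn from it. Genes are not independent, so no p is given. The markers of other cell types moved too. Stellate and smooth muscle markers outside the members stood at 0.59, the highest of all cows, while macrophage (0.53), endothelial (0.30) and blood markers (-0.22) were the lowest of all cows. Their part in these values was not tested.

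Healthy cow 2 also had high levels of some matrix genes, COL1A2 and COL3A1 among them. It exceeded the mean of the 5 other healthy cows (healthy cow 7 left out) by over 1 for 17 of 77 members (22.1%), against 1.72% of 6934 genes. In the other 5 healthy cows that count was 0 to 4 members, each against the mean of the rest. The genes with the largest excess in the cow included COL1A2 in first place (3.57), COL3A1 in place 5 (2.89), SPARC in place 6 (2.57), LUM in place 8 (2.38) and THBS2, an antiangiogenic thrombospondin, in place 11 (2.27). Of the 7 fibrillar collagens COL1A2 and COL3A1 were raised by over 1, while COL11A1 lay at -1.53 and COL5A3 at -0.01 relative to the other healthy cows. Of the 4 small leucine-rich proteoglycans LUM was raised by over 1, and BGN lay at -0.46. In all, 8 of the 25 genes with the largest excess were members. The other genes of this top 25 were of several kinds. They included STRBP in place 2 (3.05) and SULT1E1, an estrogen sulfotransferase, in place 4 (2.91), and the muscle genes TNNC1 (2.16) and MYBPH (2.01). DPT, MGP and NID2, which encode further matrix proteins, and PECAM1, an endothelial marker, at 2.43, were also among them. These genes were picked after their values were seen, and no test is given for a single cow.

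Both arrays of healthy cow 2 carried the excess of COL1A2, COL3A1 and LUM. COL1A2 was -1.95 on the array with liver in Cy3 and -1.33 on the array with liver in Cy5, against -6.61 to -4.69 and -5.29 to -4.33 in healthy cows 1, 3, 4, 5 and 6. COL3A1 was -0.21 and 0.03 on those arrays, against -3.53 to -2.48 and -3.24 to -2.49. LUM was -0.95 and -0.67, against -4.57 to -1.49 and -3.94 to -2.20. Neither array of this cow overlapped the other 5 for these 3 genes. THBS2 was 0.59 on the Cy3 array, against -2.41 to -1.94, but its 0.27 on the Cy5 array lay within the -2.82 to 1.55 of the other 5.

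Marker lists of other cell types gave mixed values in healthy cow 2. Its hepatocyte marker median was 6.27, within the 5.40 to 7.21 of the healthy cows other than cow 7. The stellate and smooth muscle markers outside the members stood at -0.28 and the endothelial markers at 0.94, both inside the range of the remaining healthy cows. FN1 was 0.38, ITGB5 was -0.39 and MMP9 was 0.55 in this cow, so FN1 and MMP9 lay within the range of the other healthy cows and ITGB5 just below it. The bile duct markers were at -0.79, the highest of all cows but healthy cow 7, and the skeletal muscle markers at 0.39, the highest of the healthy cows. The part of these cell types in the excess was not tested.

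**Figure D4:**
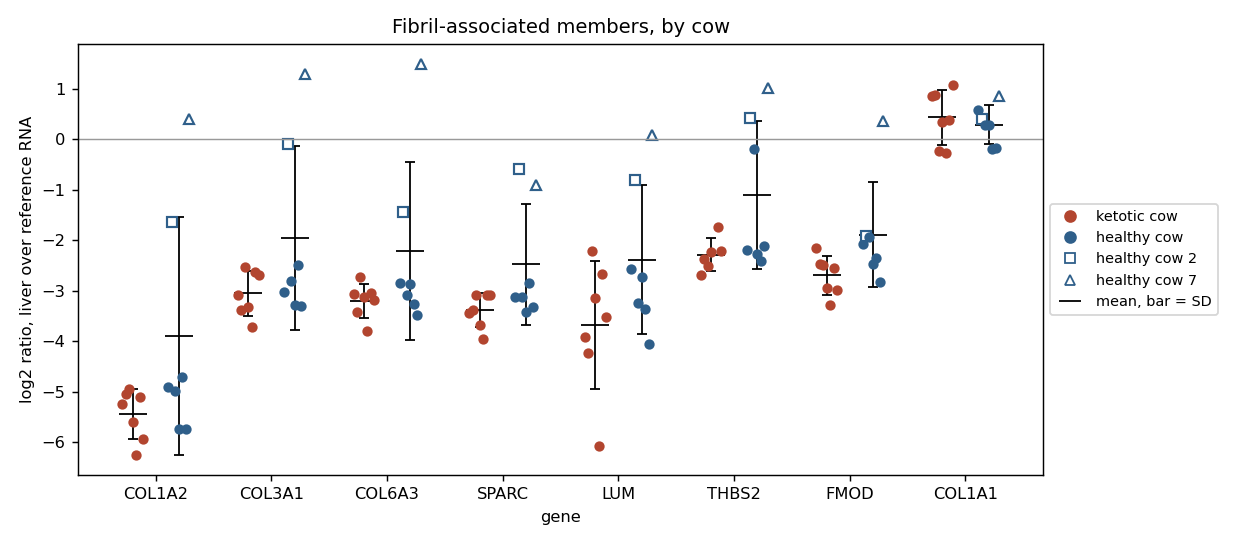
Log2 ratio of liver over reference RNA (vertical axis) in each cow for 8 members chosen after their values were seen; red circles are ketotic cows, blue symbols healthy cows, and bars give the mean and SD. Healthy cow 2 (open square) and healthy cow 7 (open triangle) lie above the other cows for COL1A2, COL3A1, COL6A3, SPARC, LUM and THBS2; FMOD stands out in healthy cow 7 only, and COL1A1 lies within the ketotic range in both.

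**Figure D5:**
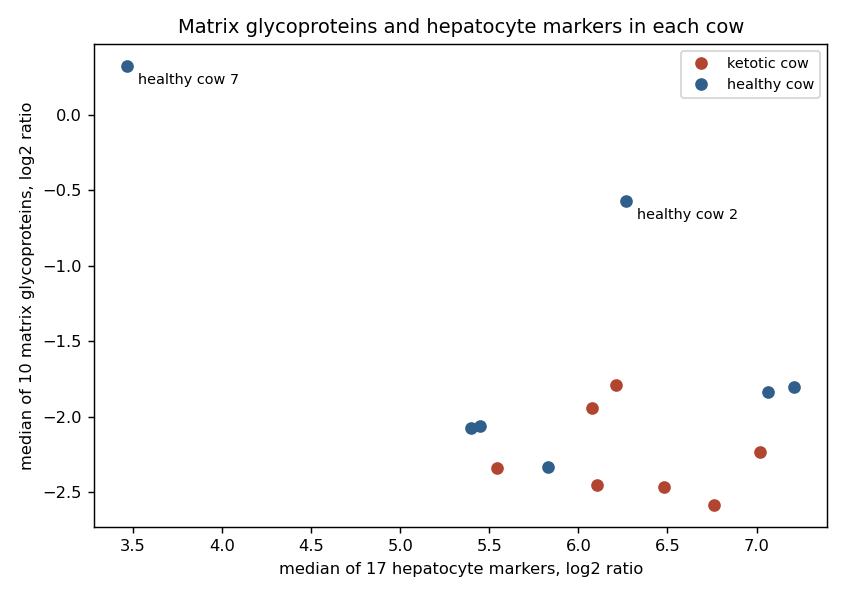
Each cow's median log2 ratio over the 17 hepatocyte markers (horizontal axis) and over the 10 measured matrix glycoproteins (vertical axis); red points are ketotic cows and blue points healthy cows. Healthy cow 7 lies at 3.47 and 0.32, healthy cow 2 at 6.27 and -0.57, and the other 12 cows lie between -2.58 and -1.79 on the vertical axis.

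With healthy cows 2 and 7 both left out, FN1 and ITGB5 passed, and MMP9 had too few healthy values to be tested. Among 75 members, FN1 (-1.54) and ITGB5 (-0.90) were lower, or 2.67%, against 16.4% of 6644 genes. None was higher by limma, where 1.22% of all genes were. An unadjusted p under 0.05 in limma was found for 12 members (16%), against 32.0% of all genes. The median difference was -0.02 over the members and -0.20 over all genes. Both cows were known for high values of members, so leaving them out had to raise the members' median, given here as a description. This comparison was added after the values of healthy cow 2 were seen.

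Levels relative to the array's median ratio differed between roles, and that median does not mark equality with the reference RNA. The mean ratio in ketotic cows was below that median for 47 of 77 members, against 4113 of 6958 genes, a like share. In the 6 other healthy cows it was below for 45 of 76 members. The members reached further below, with a median of -0.67 in ketotic cows, against -0.27 over all genes. At least 2 below the array's median lay 22 members and 547 genes in ketotic cows. At least 1 above it lay 12 members and 877 genes. Of the collagens, 4 of 7 fibrillar, 1 of 3 basement membrane and 5 of 12 other chains were below it in ketotic cows. All 10 glycoproteins and all 4 small leucine-rich proteoglycans were below it in ketotic cows, with medians of -2.31 and -2.11. The highest mean ratio of a laminin chain was that of LAMB3, at 2.03 in ketotic cows and 2.03 in healthy cows. These ratios depend on what the pooled reference holds and on the centring, and do not rank the genes by abundance. Their sign also rests on the likely direction of the ratios.

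Genes that act with the members were described from lists outside the rule, and their counts stand against the 12.4% of all genes that were lower with all cows. Focal adhesion and integrin signalling genes were lower in ketotic livers for 8 of 18, and none was higher. RHOA, the GTPase that sets actin tension, measured -2.01, -1.74 and -1.17 in ketotic cows, against -1.12, -0.85 and -0.54 in healthy cows, without overlap. Its difference was -0.89 (SE 0.15; adjusted p = 0.0031, limma). SDC1, the syndecan of hepatocyte surfaces, measured -0.16, 0.01 and 0.45 in ketotic cows, against 0.53, 0.83 and 1.13 in healthy cows, also without overlap, and differed by -0.71 (adjusted p = 0.0071). RAC1, PARVA, SDC4, TLN1, SDC3 and BCAR1 completed the 8. The count was 10 of 18 without healthy cow 7, where 18.4% of all genes were lower. It ran from 0 with liver in Cy5 alone to 10 over the alternatives with all cows as the starting point, and the median difference of the list was below 0 in all 30. Centring on the same probes left 5.

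Collagen processing enzymes were lower for 5 of 14 and higher for none. PLOD1, a lysyl hydroxylase of procollagen, measured -1.26, -0.88 and -0.50 in ketotic cows, against -0.24, 0.18 and 0.33 in healthy cows (n = 6 each), and differed by -0.99 (SE 0.17; adjusted p = 0.0041, limma). The groups did not overlap. PPIB, a prolyl isomerase that helps procollagen to fold, differed by -0.66 (adjusted p = 0.017), and P4HA1, P4HB and PLOD3 also passed. The count was 5 of 14 without healthy cow 7 too, where 18.4% of all genes were lower. The median difference of the list was then -0.15, against -0.44 with all cows. Centring on the same probes left 2, and over the alternatives with all cows the count ran from 0 to 7.

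Of the TGF-beta pathway genes, 3 of 17 were lower and none higher, near the share of all genes, and the count ran from 0 to 8 over the alternatives with all cows. ACVR1, a type I receptor, differed by -0.94 (SE 0.16; adjusted p = 0.0034, limma), and SMAD2, which carries the signal to the nucleus, by -0.85 (adjusted p = 0.012). LTBP1, which stores TGF-beta in the matrix, was the third. Ketotic and healthy cows did not overlap for ACVR1 or SMAD2.

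Other matrix proteins were lower for 2 of 20 and higher for none, also near the share of all genes. NID1, nidogen, which ties laminin to type IV collagen, measured -0.30, 0.38 and 1.09 in ketotic cows, against 1.49, 1.58 and 2.32 in healthy cows. The groups did not overlap, and the difference was -1.29 (SE 0.20; adjusted p = 0.0025, limma). EMILIN1, a glycoprotein of elastic fibres, differed by -0.56 (adjusted p = 0.021), likewise without overlap. Of 7 plasminogen activation genes 1 was lower, again near that share: S100A10, the plasminogen-binding partner of annexin A2, by -1.24 (SE 0.25; adjusted p = 0.0067).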

How the data were processed

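Liver RNA of 14 cows was measured on 28 two-colour arrays against a common reference. Per the labels, liver was in Cy3 on one array of a cow and in Cy5 on the other; 1 ketotic array has a single dye in the labels of its channels. The authors deposited log2 ratios of both channels for 27648 spots; their image analysis and normalisation are not given in the sources used here, and scanner intensities were not used here. The deposited array medians ran from -1.06 to 2.12, so each array was centred. Cy5 is likely the numerator: after the ratios with liver in Cy3 were sign-turned, hepatocyte markers lay above skeletal muscle markers on 28 of 28 arrays, by 2.85 or more.

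Values at a ceiling of 16.61 (6245) and empty cells (103458) were read as missing, and 5777 exact zeros were kept. Adjacent spots were averaged to 13824 probes, each array was centred on its median over probes, and both arrays of a cow were averaged (1 replicate). A gene needed at least 5 cows of each group, and its probes were averaged after each was centred over cows. Probes were named from the platform annotation, updated through gene IDs; 8645 had 1 symbol, and 105 with several symbols were not used. Not tested, with too few values, were ADAMTS10, COL11A2, COL23A1, COL2A1, COL4A3, COL4A5, COL4A6, COL7A1, FBN2, ITGA2, ITGA8, ITGA9, ITGB3BP, ITGB6, ITGB7, LOXL3, MMP1, MMP13, MMP20, MMP23 and THBS3, 21 members in all.

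Groups were compared with limma 3.58.1 (lmFit, eBayes) in R 4.3.3, two-sided, with Benjamini-Hochberg adjustment over all genes and a threshold of 0.05; errors of differences are moderated standard errors. The fit was tested on simulated data. Members and lists were chosen with earlier results of these data known. Members named are those that passed, the smallest p and the largest difference of each role, and the genes the rule lists by symbol; each pathway list gives up to 2 passing genes in detail. Genes outside this rule, among them COL3A1, FBLN2 and THBS2, were added after their values were seen. Alternatives covered scaling, dyes, filters, weights, a covariate and each cow left out. Figures were drawn with matplotlib 3.10.9. The labels give no batch, and the number of arrays limits the precision.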

Additional observations from a re-analysis of the deposited data

Results flagged for a closer look

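Among 52 groups of values (the named members and 4 measures per cow, each within 1 group), 10 held a cow whose gap to its nearest neighbour was large for the group's range; about 1 in 20 such groups would be picked by chance, or 2.6 here. The groups share the same cows and are not independent, so the 2.6 is a rough guide and no test. Healthy cow 7, already known for high matrix genes, was that cow in 7 of the 10. It was far above the other healthy cows for BGN (1.53), COL6A3 (1.50), DCN (1.17), FMOD (0.37) and MMP14 (1.22), and far below them for ADAMTS7 (-0.80) and MMP9 (-0.25).

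Ketotic cow 5 was far below the other ketotic cows for COL4A1 (-2.96) and POSTN (-0.86); this cow also had the largest share of spots without a usable ratio, 25.02%. Healthy cow 3 was far above the other healthy cows for ITGAD (3.42). Healthy cow 2 was picked for no member. The rule looks at the gap to the nearest cow, so 2 cows that are high together can hide each other. COL1A2 was not picked, at 0.41 in healthy cow 7, -1.64 in healthy cow 2 and -4.71 or lower in the other healthy cows. The causes of these values were not tested.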

How the results depend on the processing

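FN1 was lower under all alternatives run, ITGB5 in 29 of 30 with all cows as the starting point and in 14 of 15 without healthy cow 7; no difference of a passing gene changed sign. Over the named members' alternatives, 854 values kept their direction and side of the threshold, 33 lost a call, 27 gained one and 44 turned the sign of a difference that had not passed. Values as deposited gave 2477 passing genes with all cows (20 members lower, 0 higher, median -0.58) and 3264 without healthy cow 7 (25 members lower, median -0.50); the median of all genes was then -0.58 and -0.62, against -0.18 and -0.19 after centring. Centring on the same 5533 probes gave 3 members higher with all cows, and 2 lower and 4 higher without healthy cow 7; it moved the median of all genes to -0.07 in both, and the split of all calls to 119 higher and 551 lower with all cows and to 223 and 842 without healthy cow 7, against 64 and 865, and 103 and 1265. Scaling to one spread gave 550 passing genes (35 higher, 515 lower) with all cows, and 0 members higher. Without healthy cow 7 it gave 1466 genes (164 higher, 1302 lower), with 2 members lower and 8 higher. Quantile normalisation gave 562 passing genes (25 higher, 537 lower) with all cows, and 0 members higher. Without healthy cow 7 it gave 1361 genes (104 higher, 1257 lower), with 2 members lower and 2 higher. Members higher numbered 0 with the ceiling kept (1 without healthy cow 7), with 1 array of a cow sufficing (and 2 lower without healthy cow 7), with values in all cows needed (1 without healthy cow 7) and with values in 2 cows needed (and 2 lower without healthy cow 7). In that order, 54, 70, 60 and 72 of all genes were higher with all cows, and 87, 105, 103 and 114 without healthy cow 7. Liver in Cy3 alone gave 2 members higher in each comparison. Of all genes, 41 were then higher with all cows and 70 without healthy cow 7. Liver in Cy5 alone gave 12 genes (1 higher, 11 lower) with 1 member lower and 0 higher. Without healthy cow 7 it gave 201 genes (14 higher, 187 lower) with 1 member lower. Quality weights gave 1409 genes (141 higher, 1268 lower), 4 members lower and 3 higher. Without healthy cow 7, 125 genes and 1 member were higher. A covariate for empty spots gave 168 genes (8 higher, 160 lower) with 0 members higher. Without healthy cow 7 it gave 678 genes (67 higher, 611 lower) with 2 members lower and 1 higher. With each cow left out in turn, 652 to 1368 genes passed, 2 to 4 members were lower, 0 to 1 higher, and the members' median was -0.23 to -0.06; 1368 genes and 4 members came without healthy cow 7, and MMP9 passed in 4 of the 14, did not pass in 5 (without ketotic cows 4, 6 or 7 or healthy cows 5 or 6) and had too few healthy values for a test in the other 5 (without healthy cows 1, 2, 3, 4 or 7). Leaving out healthy cows 2 and 7, and reading 26072 ratios of small whole numbers as missing, were chosen after seeing the data; the first gave 0 members higher. No paired analysis was possible because the replicate numbers were given in accession order and pair no cows. The causes of these changes were not tested; without intensities, signal over background is unknown.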
